A study of Mus musculus with 18 samples.

Results

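The genes described here are 42 matrix genes of the mouse liver outside the fibrillar and basement membrane collagens. They were given as a list of symbols and matched by symbol to the 55536 Ensembl gene identifiers of the count files. All 42 were found. They were ordered here by role into 5 network and fibril-associated collagens, 12 elastic fibre and microfibril proteins, 6 basement membrane glycoproteins, 5 proteoglycans, 5 lysyl oxidases, 2 collagen processing proteins and 7 adhesive and matricellular glycoproteins. After removal of genes with low counts 41 of them were among the 14835 genes tested. The remaining one, Ogn, had no count in any library.

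Livers came from female C57BL/6 mice, 3 in each of 6 groups, and each library is 1 mouse, referred to by group and by the number of the mouse. TCDD, a dioxin that binds and activates the aryl hydrocarbon receptor (AHR), was gavaged at 100 µg/kg every 4 days, the vehicle was peanut oil, and livers were taken at day 92. The AhRΔHep mice, called dHep, lack AHR in hepatocytes, the AhRΔHSC mice, called dHSC, lack it in hepatic stellate cells, and the AhRfl/fl mice, which the sample labels call WT, carry floxed Ahr alleles. The 6 groups are therefore dHep TCDD, dHep vehicle, dHSC TCDD, dHSC vehicle, WT TCDD and WT vehicle. The Cre drivers, the deleted exons and the age of the mice are not given in the sources used here. The question in the series title is whether long TCDD exposure activates liver myofibroblasts by way of AHR in hepatocytes.

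Collagen fibrils in tissue are held in a wider matrix, whose parts are secreted mostly by fibroblasts, stellate cells and endothelium. Collagen VI forms beaded filaments around cells, elastin is laid down on fibrillin microfibrils with fibulins, EMILIN and latent TGF-β binding proteins, and laminins, nidogens and perlecan build the basement membrane. Small proteoglycans such as decorin and lumican set how fibrils assemble, and enzymes of the lysyl oxidase family crosslink collagen and elastin, which stiffens a scar. In a liver that scars, stellate cells lose their vitamin A stores and become myofibroblasts that make this matrix. AHR binds DNA with its partner ARNT at sites with the core GCGTG.

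Total counts ran from 12706490 to 27240877 per library, and the 8 hepatocyte markers summed to at least 47009 CPM (counts scaled to the TMM effective library size) in every library, as a liver sample should show. Ahr itself ran from 29.0 to 94.9 CPM in dHep TCDD, 28.1 to 56.8 in dHep vehicle, 23.2 to 60.8 in dHSC TCDD, 32.7 to 45.5 in dHSC vehicle, 44.6 to 56.6 in WT TCDD and 32.7 to 69.97 in WT vehicle; the groups overlapped, and since counts cover the whole gene and not the deleted exons alone, they check no genotype. In 5 libraries 2.20% to 4.25% of counts fell outside protein-coding genes, against at most 1.76% in the other 13. They are dHep TCDD 16, dHep vehicle 9 and 15, dHSC TCDD 18 and dHSC vehicle 17. Mitochondrial genes took 28.4% of counts in dHSC TCDD 18 and at most 9.96% in any of the other 17 libraries. In WT vehicle 1 the 12 skeletal muscle genes summed to 1866 CPM, where the next library had 4.70 CPM. Many results that rest on these libraries are given with and without them, but not all.

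Per kilobase of exon clear of other genes, the members differed widely in level. Igfbp7, which binds insulin-like growth factors and collagen IV, was highest with a mean of 119 CPM per kb over the 18 libraries, and Fn1, the plasma and matrix fibronectin, followed at 113. In single libraries Igfbp7 ran from 44.2 to 224 CPM per kb and Fn1 from 38.2 to 158, so these neighbours were not separated. Dcn (decorin), Sparc and Bgn (biglycan) came next at 31.9, 29.2 and 18.8 CPM per kb. The lowest were Lox at 0.469, Lama2 (laminin α2) at 0.215, Col8a1 at 0.209 and Vcan (versican) at 0.0503 CPM per kb. The median count over the 18 libraries ran from 6.5 for the lowest tested member to 23387.5 for the highest, and 40 members reached a median of 10.

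**Figure D1:**
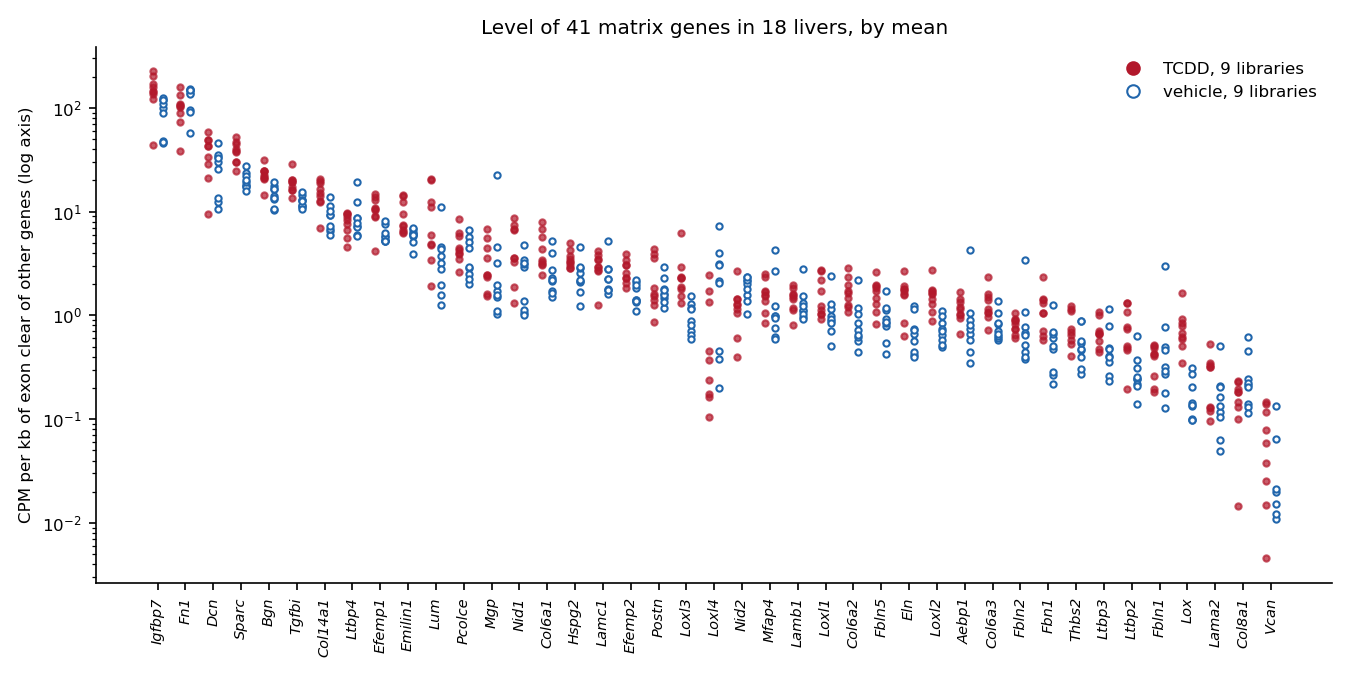
Level of each tested member in each library, as CPM per kb of exon clear of other genes on a log axis, with TCDD libraries filled and vehicle libraries open. The plotted means fall from 119 for Igfbp7 to 0.0503 for Vcan; the 2 libraries in which Vcan had no count (dHep vehicle 3 and WT vehicle 13) cannot be drawn on a log axis and are left off.

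The position of a gene bears on its count here. Of 1492 protein-coding genes with every exon base inside the span of other genes, 1381 (92.6%) were at 0 in all 18 libraries, against 25.3% of the 11798 protein-coding genes clear of other genes. All exon bases of Ogn, which encodes the small proteoglycan osteoglycin (ENSMUSG00000021390, chromosome 13, 49608046 to 49624501, plus strand), lie inside the span of Cenpp, so its 0 counts say nothing about its expression. No exon base of 24 members lies inside another gene. Above 10% of exon bases were overlapped in 7 members, which besides Ogn are Loxl2 (41.7%), Loxl3 (28.2%), Lox (20.8%), Fbn1 (20.1%), Lama2 (12.2%) and Nid1 (10.1%), so part of their reads may be missing from the counts. On chromosome 10 Col6a1 and Col6a2 lie 85162 bases apart, and Lum and Dcn lie 46985 bases apart, in both cases with no protein-coding gene between them.

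Promoters of 29 members were available in RefSeq (GRCm38.p6), as windows from 250 bases before to 50 bases after the annotated start. These RefSeq starts can differ from the gene positions given below, which come from another annotation. The Emilin1 and Sparc windows lie inside the gene spans of that annotation, 30913402 to 30921277 and 55394500 to 55423183. The letters GCGTG, on either strand and in any window of the gene, occurred in 15 of the 29 members (51.7%), against 35.2% of the 27025 genes of the table. A match is a description of the letters and no evidence of binding. The windows of 3 members that TCDD raised in WT are shown because they differ in this respect, with the match in capitals. Emilin1 (chr5:30913536-30913835, plus strand) has 1 match, which begins 64 bases before the start, Tgfbi (chr13:56609336-56609635, plus strand) has 1 match, 90 bases before the start, and Sparc (chr11:55420031-55420330, minus strand) has 0.
Emilin1: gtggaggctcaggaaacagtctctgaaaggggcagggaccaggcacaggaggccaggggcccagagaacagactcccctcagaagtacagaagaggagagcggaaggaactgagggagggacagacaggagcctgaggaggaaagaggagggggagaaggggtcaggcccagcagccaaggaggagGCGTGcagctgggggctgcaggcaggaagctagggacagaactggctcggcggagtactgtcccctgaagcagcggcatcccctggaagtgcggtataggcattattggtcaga
Tgfbi: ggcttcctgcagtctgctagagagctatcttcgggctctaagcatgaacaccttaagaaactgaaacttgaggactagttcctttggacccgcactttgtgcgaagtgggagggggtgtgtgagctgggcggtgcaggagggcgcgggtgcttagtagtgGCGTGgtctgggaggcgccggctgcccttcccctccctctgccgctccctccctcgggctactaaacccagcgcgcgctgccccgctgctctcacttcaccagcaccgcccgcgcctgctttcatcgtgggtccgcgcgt
Sparc: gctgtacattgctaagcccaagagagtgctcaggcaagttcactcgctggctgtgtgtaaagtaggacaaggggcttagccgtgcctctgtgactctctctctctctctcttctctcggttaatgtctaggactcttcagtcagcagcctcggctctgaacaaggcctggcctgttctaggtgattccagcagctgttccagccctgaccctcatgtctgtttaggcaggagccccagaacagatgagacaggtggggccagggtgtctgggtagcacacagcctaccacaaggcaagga

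In WT livers TCDD raised 4 of the 41 tested members and lowered 0. They are Emilin1, Lox, Sparc and Tgfbi, with Lox rising most, by 2.46 on the log2 scale. All 4 stand at an adjusted p under 0.05 in edgeR's quasi-likelihood test over all genes, which called 3.43% of all genes higher and 1.95% lower. The median log2 change of the members was 0.75, with 31 above 0, against a median of -0.02 over all genes, of which 48.8% were above 0. In 13 members (31.7%) all 3 WT TCDD livers lay above all 3 WT vehicle livers, against 13.4% of all genes, and in 2 members, Nid2 and Fn1, all lay below, against 11.4% of all genes. An unadjusted p under 0.05 was reached by 17 members (16.7% of all genes). DESeq2 called 9 members higher, where it called 4.61% of all genes higher and 3.17% lower. Without the 5 libraries high in counts outside protein-coding genes, 11 members were called higher and 1 lower, where 6.08% of all genes were called higher and 4.08% lower. In bulk liver more cells of a type and more RNA per cell cannot be told apart, here and in every comparison that follows.

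**Figure D2:**
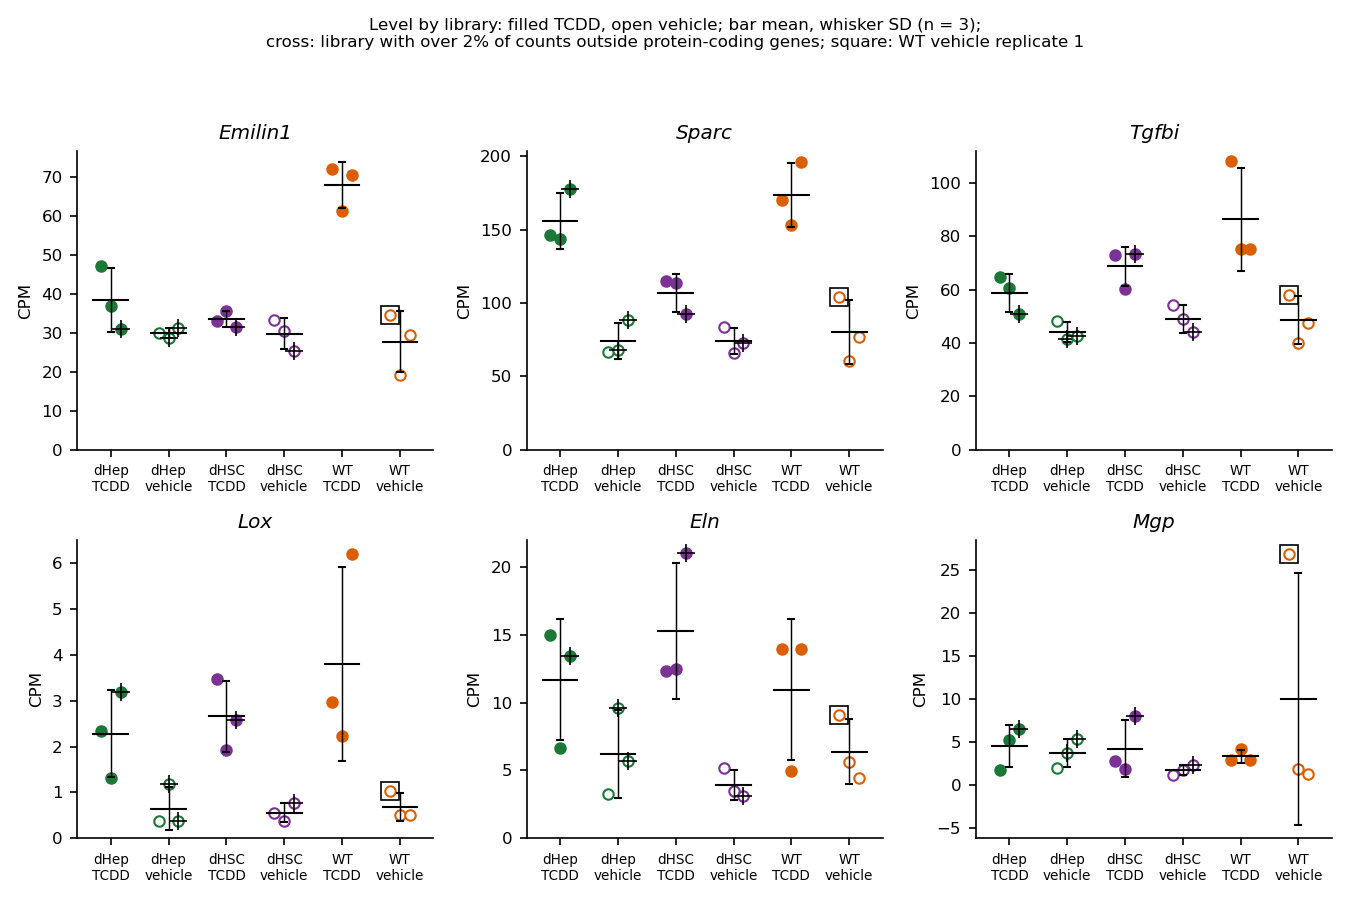
Level in CPM of the 5 members called in any TCDD comparison, and of Mgp, in each library by group, with the mean as a bar and the SD as a whisker (n = 3). The 3 WT TCDD libraries of Emilin1, Sparc, Tgfbi and Lox lie above their 3 WT vehicle libraries, the dHSC TCDD libraries of Eln lie above the dHSC vehicle libraries, and Mgp reaches 26.9 CPM in WT vehicle 1 alone (square).

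Among the elastic fibre and microfibril genes, Emilin1 (ENSMUSG00000029163, chromosome 5, 30913402 to 30921277, plus strand) encodes a glycoprotein at the elastin surface that also restrains the maturation of TGF-β. Emilin1 had 72.03, 61.1 and 70.4 CPM in the WT TCDD livers, against 34.5, 19.2 and 29.4 CPM in the WT vehicle livers. The TCDD livers were all above the vehicle livers, and the lowest TCDD value was well clear of the highest vehicle value. Its mean was 67.9 ± 5.90 CPM with TCDD and 27.7 ± 7.76 CPM with vehicle (SD, n = 3 each), a log2 change of 1.29 (SE 0.23, adjusted p = 0.00362), and the call was kept whichever of the 6 WT libraries was left out. Ltbp2 (ENSMUSG00000002020, chromosome 12, 84783212 to 84876532, minus strand) encodes a microfibril protein that, unlike its relatives, does not bind latent TGF-β. Ltbp2 had 9.80, 3.59 and 8.06 CPM in the WT TCDD livers, against 2.29, 1.91 and 1.55 CPM in the WT vehicle livers. The groups did not overlap, and the log2 change of 1.90 (SE 0.54, adjusted p = 0.0527) lay just outside the threshold. Fbln1 (ENSMUSG00000006369, chromosome 15, 85205949 to 85286535, plus strand), encoding fibulin-1 of elastic fibres and basement membranes, had a negative log2 change that rests on WT vehicle 1. Fbln1 had 2.29, 1.14 and 1.86 CPM in the WT TCDD livers, against 13.1, 0.785 and 1.26 CPM in the WT vehicle livers. Its log2 change was -1.51 (SE 0.84, adjusted p = 0.413) with that library and 0.78 (SE 0.66, adjusted p = 0.658) without it. The other 9 genes of the group had log2 changes from -0.85 (Fbln2) to 1.10 (Fbn1, the fibrillin of microfibrils), and the fibulin-family genes Efemp1 and Efemp2, chosen after their values were seen, were the only ones of the 9 with no overlap between groups.

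Of the 5 lysyl oxidases, which oxidise lysines so that collagen and elastin chains can crosslink, 1 rose. Lox (ENSMUSG00000024529, chromosome 18, 52516067 to 52529867, minus strand), the founding enzyme of the family, was scarce in vehicle. Lox had 2.98, 2.22 and 6.20 CPM in the WT TCDD livers, against 1.03, 0.504 and 0.517 CPM in the WT vehicle livers, from 39 to 150 counts with TCDD and 9 to 18 counts with vehicle. The groups did not overlap, and WT TCDD 14 stood above the other 2 TCDD livers. The mean was 3.80 ± 2.11 CPM with TCDD and 0.684 ± 0.301 CPM with vehicle (SD, n = 3 each), a log2 change of 2.46 (SE 0.58, adjusted p = 0.0179). The call was lost without WT vehicle 7, WT vehicle 13 or WT TCDD 14, where the adjusted p reached 0.107. Loxl2 and Loxl3, named after their values were seen, also had no overlap between groups, with log2 changes of 1.20 (SE 0.37, adjusted p = 0.0724) and 1.56 (SE 0.49, adjusted p = 0.0767). Loxl4 (ENSMUSG00000025185, chromosome 19, 42593982 to 42612813, minus strand) had the lowest log2 change of the members without passing the test. Loxl4 had 1.92, 0.683 and 5.66 CPM in the WT TCDD livers, against 1.61, 16.98 and 30.5 CPM in the WT vehicle livers. The groups overlapped, with WT vehicle 1 as low as the TCDD livers, and the log2 change was -2.56 (SE 1.12, adjusted p = 0.252). Loxl1 stood at 0.13.

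The adhesive and matricellular group held 2 of the 4 rises. Sparc (ENSMUSG00000018593, chromosome 11, 55394500 to 55423183, minus strand) encodes osteonectin, a collagen-binding protein that helps procollagen into fibrils. Sparc had 170.4, 153 and 196 CPM in the WT TCDD livers, against 104, 60.4 and 76.98 CPM in the WT vehicle livers. No TCDD liver reached down to the vehicle range. The mean was 173 ± 21.7 CPM with TCDD and 80.4 ± 21.9 CPM with vehicle (SD, n = 3 each), a log2 change of 1.11 (SE 0.24, adjusted p = 0.0104). Tgfbi (ENSMUSG00000035493, chromosome 13, 56609523 to 56639562, plus strand) encodes a secreted TGF-β-induced protein that binds collagens and integrins. Tgfbi had 108, 75.2 and 75.3 CPM in the WT TCDD livers, against 58.1, 40.01 and 47.5 CPM in the WT vehicle livers. The TCDD livers were again all above the vehicle livers, with WT TCDD 2 highest. The mean was 86.3 ± 19.1 CPM with TCDD and 48.6 ± 9.10 CPM with vehicle (SD, n = 3 each), a log2 change of 0.83 (SE 0.22, adjusted p = 0.0355). Sparc kept its call in 3 and Tgfbi in 2 of the 6 fits that leave out 1 WT library, and the adjusted p reached 0.0627 for Sparc and 0.203 for Tgfbi.

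Mgp (ENSMUSG00000030218, chromosome 6, 136872435 to 136875823, minus strand), encoding matrix Gla protein, an inhibitor of calcification, was marked by a single library. Mgp had 2.88, 4.27 and 2.94 CPM in the WT TCDD livers, against 26.9, 1.85 and 1.32 CPM in the WT vehicle livers. WT vehicle 1 was the highest of all 18 libraries, and the other 2 vehicle livers were below every TCDD liver. The log2 change of -1.58 (SE 0.88, adjusted p = 0.420) turned to 1.07 (SE 0.65, adjusted p = 0.446) without WT vehicle 1. Of the remaining genes of the group, chosen after their values were seen, Postn (periostin) stood at 0.98 (SE 0.31, adjusted p = 0.0858) and Igfbp7 at 0.78, both with no overlap, and Thbs2 (thrombospondin 2) at 0.75 with overlap. Fn1, the most counted member, had 1173, 826 and 1235 CPM in the WT TCDD livers, against 1567, 1543 and 1687 CPM in the WT vehicle livers. Every TCDD liver was below every vehicle liver, with a log2 change of -0.57 (SE 0.42, adjusted p = 0.622).

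None of the 5 network and fibril-associated collagens passed the test in WT. Col6a1 (ENSMUSG00000001119, chromosome 10, 76708792 to 76726168, minus strand), the α1 chain of collagen VI, was higher in 2 of the 3 TCDD livers than in any vehicle liver. Col6a1 had 34.7, 18.96 and 30.01 CPM in the WT TCDD livers, against 22.7, 7.57 and 7.18 CPM in the WT vehicle livers. WT TCDD 8 and WT vehicle 1 overlapped, and the log2 change was 1.16 (SE 0.45, adjusted p = 0.167). Its partner chains Col6a2 and Col6a3 had log2 changes of 1.06 and 0.88. Without WT vehicle 1 all 3 chains were called, Col6a1 at 1.91 (SE 0.42, adjusted p = 0.0133), Col6a2 at 2.05 (SE 0.39, adjusted p = 0.00651) and Col6a3 at 1.34 (SE 0.36, adjusted p = 0.0406). Col8a1 (ENSMUSG00000068196, chromosome 16, 57624258 to 57754737, minus strand), a short network collagen of vessel walls, had few counts. Col8a1 had 1.79, 0.114 and 1.16 CPM in the WT TCDD livers, against 4.87, 0.897 and 1.61 CPM in the WT vehicle livers. Of the WT libraries, WT TCDD 8 held 2 counts and WT vehicle 1 held 85, and the log2 change was -1.25 (SE 0.74, adjusted p = 0.467). Col14a1, which sits on the surface of collagen I fibrils, was the only one of the 5 without overlap, at 0.86 (adjusted p = 0.223).

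The 6 basement membrane glycoproteins gave 0 calls in WT. The nidogens link laminin to collagen IV. Nid1 (ENSMUSG00000005397, chromosome 13, 13437551 to 13512269, plus strand) is the more abundant one. Nid1 had 53.8, 20.2 and 46.1 CPM in the WT TCDD livers, against 29.5, 8.69 and 19.8 CPM in the WT vehicle livers. WT TCDD 8 fell within the vehicle range, and the log2 change was 1.05 (SE 0.63, adjusted p = 0.476). For Nid2 (ENSMUSG00000021806, chromosome 14, 19751265 to 19811787, plus strand) the levels were 4.95, 2.85 and 5.50 CPM in the WT TCDD livers, against 10.4, 8.46 and 11.1 CPM in the WT vehicle livers. All TCDD livers were below all vehicle livers, with a log2 change of -1.17 (SE 0.44, adjusted p = 0.151). Without the 5 libraries high in counts outside protein-coding genes, none of which is WT, Nid2 was called lower, at -1.17 (SE 0.33, adjusted p = 0.0468). The laminin chains Lama2, Lamb1 and Lamc1 and the heparan sulfate proteoglycan Hspg2 (perlecan) had log2 changes from 0.22 to 0.50.

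Among the proteoglycans 4 of 5 could be tested and 0 passed in WT. Lum (ENSMUSG00000036446, chromosome 10, 97565128 to 97572703, plus strand), a small keratan sulfate proteoglycan that sets fibril thickness, had the largest log2 change of them. Lum had 49.1, 14.4 and 50.6 CPM in the WT TCDD livers, against 27.2, 6.84 and 10.7 CPM in the WT vehicle livers. The 2 highest livers were TCDD, but WT TCDD 8 lay below WT vehicle 1, and the log2 change was 1.35 (SE 0.65, adjusted p = 0.311). Vcan (ENSMUSG00000021614, chromosome 13, 89655312 to 89742509, minus strand), a large chondroitin sulfate proteoglycan of loose and scarring matrix, was close to the limit of counting. Its levels were 1.60, 1.08 and 2.03 CPM in the WT TCDD livers, against 1.83, 0.168 and 0 CPM in the WT vehicle livers, or 35, 19 and 49 counts against 32, 3 and 0. WT vehicle 1 lay within the TCDD range and the other 2 vehicle livers were near 0, so the log2 change was 1.23 (SE 1.17, adjusted p = 0.751) with it and 4.11 (SE 1.44, adjusted p = 0.114) without it. The small proteoglycans Bgn and Dcn stood at 0.65 and 0.42, and only Bgn had no overlap.

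Both collagen processing genes overlapped between the WT groups. Pcolce (ENSMUSG00000029718, chromosome 5, 137605103 to 137613784, minus strand) encodes an enhancer of the protease that trims the C-terminal ends of procollagens. Pcolce had 14.6, 21.4 and 14.9 CPM in the WT TCDD livers, against 16.6, 10.9 and 8.38 CPM in the WT vehicle livers. The ranges ran into each other, with a log2 change of 0.50 (SE 0.47, adjusted p = 0.749). Aebp1 (ENSMUSG00000020473, chromosome 11, 5861947 to 5872088, plus strand) encodes a collagen-binding protein needed for fibril assembly. Aebp1 had 5.45, 2.68 and 5.87 CPM in the WT TCDD livers, against 17.4, 3.31 and 2.35 CPM in the WT vehicle livers. Again WT vehicle 1 was far above the rest, and the log2 change was -0.71 (SE 0.61, adjusted p = 0.699) with it and 0.72 (SE 0.48, adjusted p = 0.525) without it.

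WT vehicle 1 was thus out of line in much of the list. It was above both other WT vehicle livers in 36 of the 41 members, against 38.0% of all genes, with a median ratio to their mean of 2.02 over the members and 0.994 over all genes. The ratio passed 4 in 7 members (Mfap4, Fbln1, Fbln2, Ltbp3, Vcan, Aebp1 and Mgp), against 4.32% of all genes. In 9 members this was the highest of the 18 libraries. Beside its skeletal muscle genes, this library had 87.7 CPM over 5 smooth muscle markers, where dHep vehicle 9 had 78.0 CPM and no other library more than 17.1 CPM. It also had the highest sums of all 18 libraries for the portal fibroblast, mesothelium and stellate cell lists, at 61.2, 31.6 and 498 CPM. Its endothelium sum of 427 CPM was the highest of WT vehicle, against 127 CPM in WT vehicle 7 and 301 CPM in WT vehicle 13. The part of these cell types in the matrix levels was not tested. On the other side, WT TCDD 8 was the lowest of its group in 35 of 41 members. For the 9 and the 35 members the shares over all genes were not counted, so neither is shown to be particular to the members.

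Without WT vehicle 1, 9 of 41 members were called higher and 0 lower, where 3.72% of all genes were called higher and 2.3% lower. This library was singled out after the data were seen. It is above both other WT vehicle livers in 36 members, so leaving it out raises most WT changes by construction. The rise in calls is therefore no separate support for a TCDD effect. Comparisons of dHep and dHSC with WT that leave it out shift for the same reason. They are the 4 called with it and Col6a1, Col6a2, Col6a3, Ltbp3 and Postn. The median log2 change of the members was then 1.07, and 36 were above 0. The sign turned to positive in Mgp, Fbln1, Fbln2, Aebp1 and Mfap4. Ltbp3, which encodes a latent TGF-β binding protein, had a log2 change of 0.47 with the library and 1.62 (SE 0.44, adjusted p = 0.0426) without it.

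**Figure D3:**
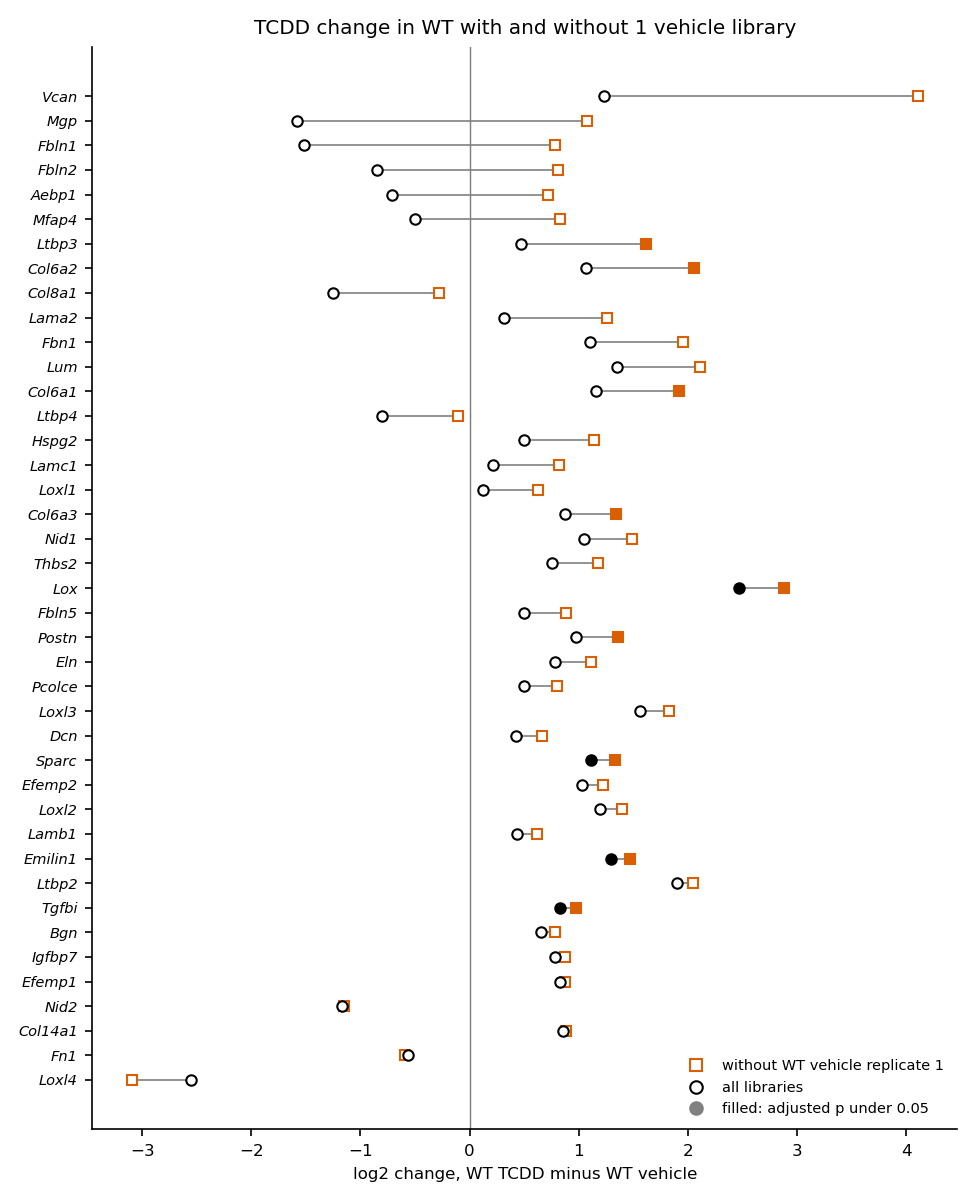
Log2 change of each tested member for TCDD in WT with all libraries (circles) and without WT vehicle replicate 1 (squares), filled at an adjusted p under 0.05. Vcan and Mgp move furthest, to 4.11 and 1.07 without the library, while Col14a1, Fn1 and Nid2 hardly move.

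In dHep livers 0 members were called in either direction, and few genes were called at all, 0.027% of all genes higher and 0.0404% lower. The median log2 change of the members was 0.44, with 34 above 0, against -0.01 over all genes. In 14 members all dHep TCDD livers lay above all dHep vehicle livers (34.1%, against 4.56% of all genes), and in 0 members below (5.03% of all genes). An unadjusted p under 0.05 was reached by 7 members, where 6.70% of all genes reached it. Sparc had the smallest adjusted p. Sparc had 146, 143 and 178 CPM in the dHep TCDD livers, against 66.4, 67.8 and 88.5 CPM in the dHep vehicle livers. The groups were apart, with a log2 change of 1.07 (SE 0.24, adjusted p = 0.156). Lox was apart as well, at 2.34, 1.32 and 3.20 CPM in the dHep TCDD livers, against 0.374, 1.19 and 0.377 CPM in the dHep vehicle livers, a log2 change of 1.81 (SE 0.57, adjusted p = 0.508). Tgfbi did not overlap either, with 64.9, 60.6 and 50.9 CPM in dHep TCDD, against 48.3, 41.5 and 42.5 CPM in dHep vehicle and a log2 change of 0.42 (SE 0.22, adjusted p = 0.751).

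Emilin1 overlapped between the dHep groups. Emilin1 had 47.2, 36.8 and 30.96 CPM in the dHep TCDD livers, against 29.96, 28.5 and 31.1 CPM in the dHep vehicle livers. dHep TCDD 4 and 10 were above every vehicle liver and dHep TCDD 16 lay within the vehicle range, and the log2 change was 0.36 (SE 0.23, adjusted p = 0.805). Ltbp2 also overlapped, with 3.46, 1.44 and 3.74 CPM in dHep TCDD, against 1.05, 4.70 and 1.81 CPM in dHep vehicle and a log2 change of 0.20 (SE 0.53, adjusted p = 0.961). Lum had 11.9, 11.6 and 8.44 CPM in dHep TCDD, against 7.79, 3.87 and 3.09 CPM in dHep vehicle, with no overlap and a log2 change of 1.10 (SE 0.65, adjusted p = 0.789). Bgn, chosen after its values were seen, had 149, 138 and 125 CPM in dHep TCDD, against 86.3, 63.1 and 65.3 CPM in dHep vehicle, a log2 change of 0.94 (SE 0.25, adjusted p = 0.389). DESeq2 called Bgn and Sparc here, where it called 0.25% of all genes higher and 0.243% lower. Of the 6 dHep libraries, 3 are among the 5 high in counts outside protein-coding genes. Without them 2 TCDD livers and 1 vehicle liver remain, 0 members and 0.0% of all genes were called, and the median log2 change of the members was 0.77 with 38 of 41 above 0; the lone vehicle liver is assumed to vary like the other groups.

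In dHSC livers TCDD raised 1 of the 41 members, Eln, and lowered 0, where 1.71% of all genes were called higher and 0.843% lower. Eln (ENSMUSG00000029675, chromosome 5, 134702593 to 134747323, minus strand) encodes tropoelastin, the elastic core of the fibre. Eln had 12.3, 12.5 and 21.1 CPM in the dHSC TCDD livers, against 5.21, 3.46 and 3.09 CPM in the dHSC vehicle livers. The lowest TCDD liver was above the highest vehicle liver, and dHSC TCDD 18, the library with 28.4% of mitochondrial counts, was highest. Without it the log2 change was 1.65 (SE 0.51, adjusted p = 0.157). The mean was 15.3 ± 5.01 CPM with TCDD and 3.92 ± 1.13 CPM with vehicle (SD, n = 3 each), a log2 change of 1.95 (SE 0.49, adjusted p = 0.0451). The call was lost whichever of the 6 dHSC libraries was left out (adjusted p = 0.0677 to 0.201), and without the 5 libraries high in counts outside protein-coding genes the log2 change was 1.51 (SE 0.55, adjusted p = 0.315), with 0 members called (0.936% of all genes higher and 0.436% lower). In the other genotypes Eln overlapped between groups, with 14.97, 6.65 and 13.5 CPM in dHep TCDD, against 3.26, 9.64 and 5.74 CPM in dHep vehicle, a log2 change of 0.92 (SE 0.48, adjusted p = 0.747). In WT TCDD it had 13.97, 4.95 and 13.9 CPM, against 9.06, 5.60 and 4.48 CPM in WT vehicle, a log2 change of 0.78 (SE 0.47, adjusted p = 0.482).

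The median log2 change of the members in dHSC was 0.61, with 34 above 0, and all dHSC TCDD livers lay above all dHSC vehicle livers in 14 members (34.1%, against 9.61% of all genes), and all below in 0 (7.7% of all genes). Without the 5 libraries high in counts outside protein-coding genes the median was 0.50, with 35 above 0. The counts of members without overlap are given with all libraries only. An unadjusted p under 0.05 was reached by 10 members, where 12.2% of all genes reached it. Of the 5 lysyl oxidases, 4 had every TCDD liver above every vehicle liver, Lox, Loxl1, Loxl2 and Loxl3. Lox had 3.47, 1.93 and 2.58 CPM in the dHSC TCDD livers, against 0.543, 0.368 and 0.774 CPM in the dHSC vehicle livers. The groups were well apart, and the log2 change of 2.22 (SE 0.58, adjusted p = 0.0578) just missed the threshold. Ltbp2 had 5.68, 5.44 and 9.82 CPM in dHSC TCDD, against 1.81, 1.62 and 2.74 CPM in dHSC vehicle, with no overlap and a log2 change of 1.76 (SE 0.54, adjusted p = 0.118). DESeq2 called Eln, Ltbp2, Lox, Loxl2 and Loxl3, where it called 2.73% of all genes higher and 1.61% lower. Loxl3 had 20.3 CPM in dHSC TCDD 18, with 5.04 and 5.98 CPM in the other dHSC TCDD livers and at most 3.94 CPM in dHSC vehicle. Eln and Ltbp2 were also highest in dHSC TCDD 18, while Lox was highest in dHSC TCDD 6. All 3 collagen VI chains were free of overlap, with Col6a1 at 15.1, 13.3 and 25.1 CPM in dHSC TCDD, against 9.96, 9.58 and 11.96 CPM in dHSC vehicle and a log2 change of 0.76 (SE 0.44, adjusted p = 0.567).

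Sparc and Tgfbi were also apart in dHSC. Sparc had 115, 113 and 92.2 CPM in the dHSC TCDD livers, against 83.6, 65.9 and 72.5 CPM in the dHSC vehicle livers, a log2 change of 0.53 (SE 0.23, adjusted p = 0.359). Tgfbi had 72.9, 60.4 and 73.2 CPM in the dHSC TCDD livers, against 54.4, 48.99 and 43.96 CPM in the dHSC vehicle livers, a log2 change of 0.49 (SE 0.22, adjusted p = 0.370). Emilin1 overlapped, at 33.1, 35.6 and 31.5 CPM in dHSC TCDD, against 33.3, 30.4 and 25.4 CPM in dHSC vehicle, a log2 change of 0.17 (SE 0.23, adjusted p = 0.923). Nid2 had 6.05, 6.03 and 1.86 CPM in dHSC TCDD, against 11.1, 6.56 and 4.85 CPM in dHSC vehicle, with overlap and a log2 change of -0.69 (SE 0.44, adjusted p = 0.619). Dcn, the most abundant proteoglycan, was lower in each of the 5 libraries high in counts outside protein-coding genes (at most 123 CPM) than in any of the other 13 (at least 149 CPM), the one member with such a split. By medians, Nid1, Igfbp7 and Lum were also at 0.319, 0.350 and 0.396 times their level in the other 13, while Loxl4, Mgp and Mfap4 were at 3.75, 2.60 and 2.21 times theirs. Over the 41 members the median ratio was 0.879, and 25 were lower in the 5 libraries. The matching values over all genes were not computed, so these counts do not set the members apart from other genes. None of the 5 is WT and the other 13 include every WT liver, so these ratios also mix in genotype and treatment. The part of this difference between libraries in the TCDD comparisons was not tested.

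**Figure D4:**
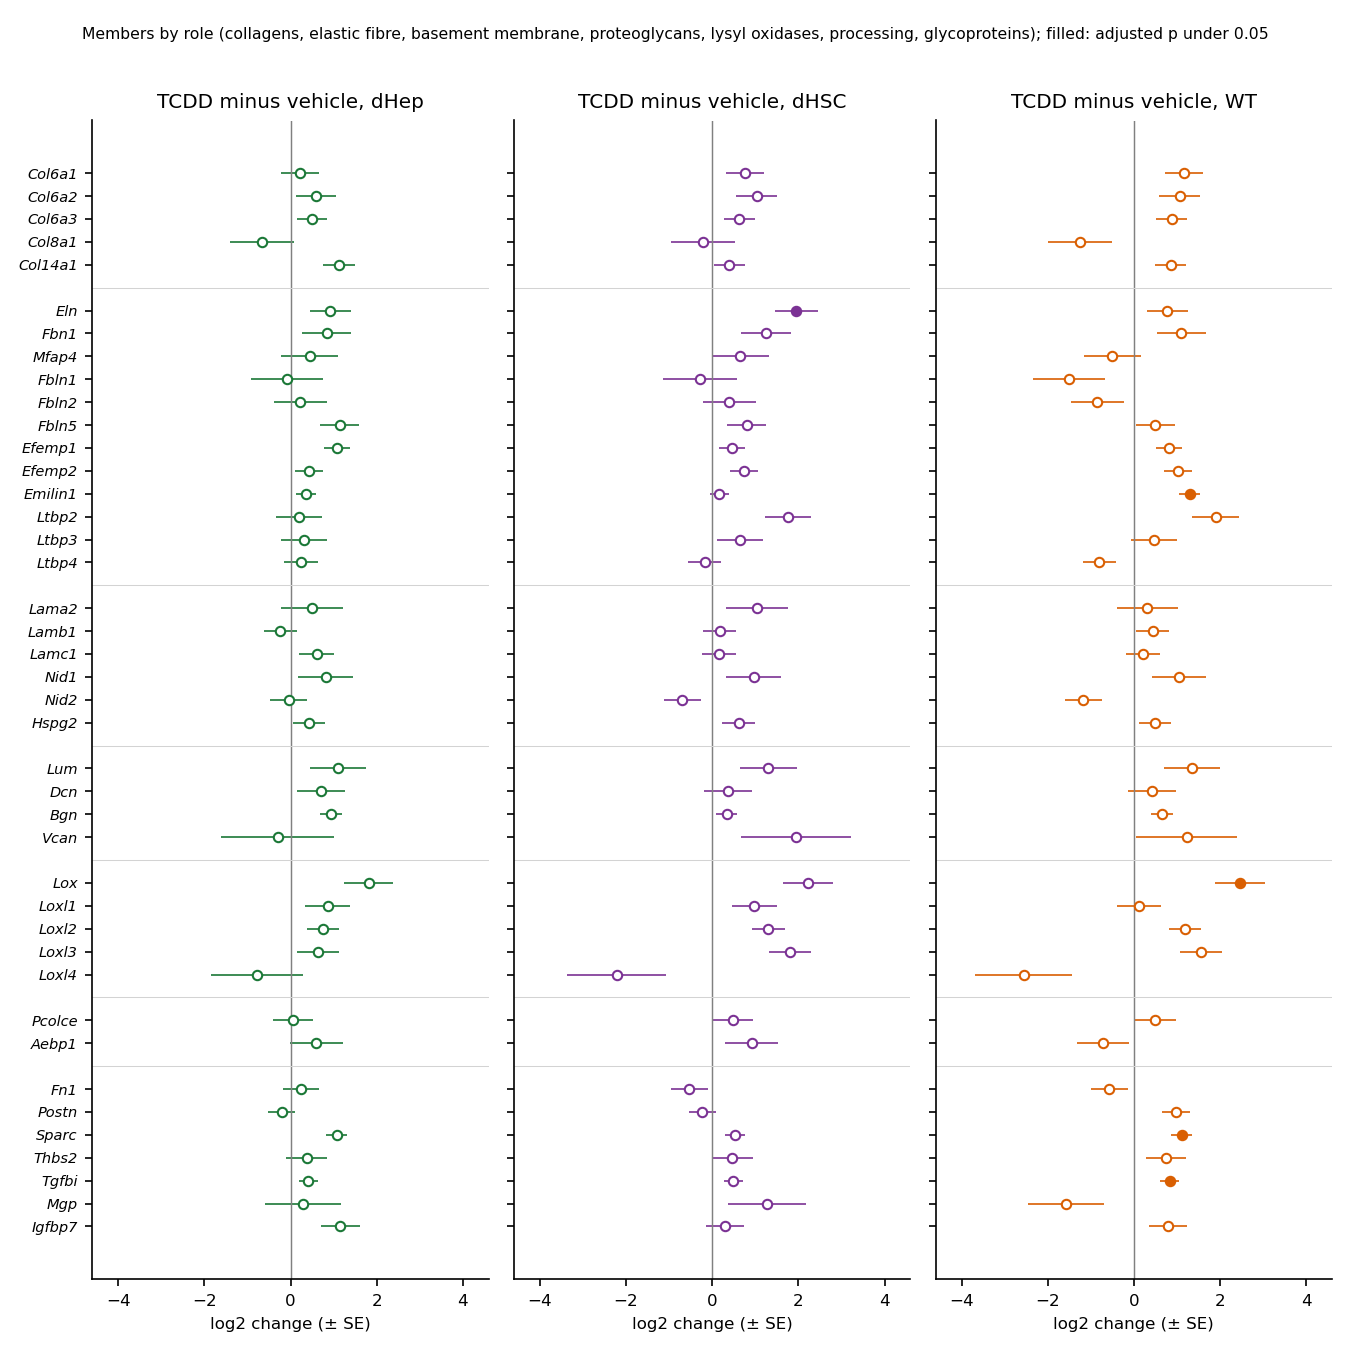
Log2 change with its standard error for TCDD against vehicle in dHep, dHSC and WT for the 41 tested members, ordered by role, filled at an adjusted p under 0.05. Most points lie right of 0 in each genotype (34 in dHep, 34 in dHSC and 31 in WT), and the filled ones are Eln in dHSC and Emilin1, Lox, Sparc and Tgfbi in WT.

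The test of the response itself, the TCDD change in dHep minus that in WT, gave 0 of 41 members, where 0.351% of all genes were called higher and 0.506% lower. The same test for dHSC minus WT gave 0 members and 0.0% of all genes. An unadjusted p under 0.05 was reached by 3 members in each, against 8.43% of all genes for dHep and 1.57% for dHSC. The 2 tests share the WT libraries and are not independent of each other. Emilin1 had the smallest adjusted p for dHep. Its log2 change was 0.36 in dHep and 0.17 in dHSC, against 1.29 in WT, and the difference was -0.93 (SE 0.33, adjusted p = 0.345) for dHep and -1.12 (SE 0.33, adjusted p = 1) for dHSC. For Lox the difference was -0.65 (SE 0.79, adjusted p = 0.871) for dHep and -0.24 (SE 0.81, adjusted p = 1) for dHSC. Sparc had a difference of -0.04 (SE 0.33, adjusted p = 0.977) for dHep and -0.58 (SE 0.33, adjusted p = 1) for dHSC, and Tgfbi one of -0.41 (SE 0.31, adjusted p = 0.783) and -0.34 (SE 0.31, adjusted p = 1) in the same order. Eln had a difference of 0.14 (SE 0.67, adjusted p = 0.962) for dHep and 1.17 (SE 0.67, adjusted p = 1) for dHSC. With standard errors of this size, neither an equal nor an unequal response was shown for these genes.

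Ltbp2 had a difference of -1.70 (SE 0.75, adjusted p = 0.546) for dHep and -0.14 (SE 0.75, adjusted p = 1) for dHSC. Postn, chosen after its values were seen, had 13.3, 16.01 and 11.02 CPM in dHep TCDD, against 12.7, 19.7 and 13.9 CPM in dHep vehicle. It had 12.2, 14.1 and 7.59 CPM in dHSC TCDD, against 15.8, 13.8 and 10.3 CPM in dHSC vehicle, and 38.1, 33.7 and 31.3 CPM in WT TCDD, against 25.6, 11.6 and 15.2 CPM in WT vehicle. The WT TCDD livers were above all 15 others, and the difference was -1.18 (SE 0.44, adjusted p = 0.420) for dHep and -1.21 (SE 0.44, adjusted p = 1) for dHSC. Mgp had a difference of 2.84 (SE 1.26, adjusted p = 1) for dHSC, where its WT change turns sign without WT vehicle 1. Over the 41 members the median difference was -0.04 for dHep and -0.02 for dHSC with all libraries. Without WT vehicle 1 it was -0.67 for dHep and -0.45 for dHSC, with 0 members called in either (0.301% of all genes higher and 0.432% lower for dHep, 0.0% for dHSC), against medians of -0.06 and -0.02 over all genes.

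Between vehicle livers 0 of 41 members and 0.0% of all genes were called in either direction, for dHep minus WT and for dHSC minus WT. An unadjusted p under 0.05 was reached by 2 members in each, Lum and Aebp1 for dHep and Aebp1 and Mgp for dHSC, against 6.91% of all genes for dHep and 1.48% for dHSC. In 0 members did the 3 vehicle livers of a deleted genotype lie all above or all below those of WT, against 4.58% above and 3.26% below over all genes for dHep and 2.24% above and 2.16% below for dHSC. The median difference of the members was -0.39 for dHep and -0.30 for dHSC. Without WT vehicle 1 it was 0.16 for dHep and 0.17 for dHSC, and 25 and 27 of the 41 members were then above 0 where 6 and 7 had been. Lum, for example, had 7.79, 3.87 and 3.09 CPM in dHep vehicle and 11.05, 9.14 and 4.85 CPM in dHSC vehicle, against 27.2, 6.84 and 10.7 CPM in WT vehicle. The dHep and dHSC values overlapped with WT vehicle 7 and 13 and lay below WT vehicle 1.

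Genes that work with these members were counted in lists. Of 6 fibrillar collagens 0 were called in dHep, 0 in dHSC and 2 in WT (Col1a1 and Col3a1, both higher), with median log2 changes of 0.57 in dHep, 1.215 in dHSC and 1.34 in WT. Over all genes 0.027% were called higher and 0.0404% lower in dHep, 1.71% and 0.843% in dHSC, and 3.43% and 1.95% in WT. With so few genes called in dHep, 0 calls there do not set a list apart. Col1a1, the main scar collagen chain, had a log2 change of 1.51 (adjusted p = 0.567) in dHep, 2.02 (adjusted p = 0.0622) in dHSC and 2.46 (adjusted p = 0.0128) in WT. Of 18 tested genes for collagen hydroxylation, folding and trimming, 0 were called in dHep, 0 in dHSC and 1 in WT, where 3.43% of all genes were called higher and 1.95% lower. That gene is Bmp1, the procollagen C-proteinase which Pcolce enhances, and it fell by 1.45 on the log2 scale in WT (adjusted p = 0.0167). Of 23 tested matrix receptors, 0 were called in dHep, 0 in dHSC and 1 in WT, Sdc2 (syndecan 2), which fell by 1.34 (adjusted p = 0.0155). The shares of both lists called in WT in either direction are near those over all genes. Without WT vehicle 1, 3 receptors were called, Ddr1 higher and Sdc1 and Sdc2 lower. The medians were 0.32 in dHep, 0.12 in dHSC and 0.51 in WT for hydroxylation, folding and trimming, and -0.04, 0.11 and 0.27 in the same order for the receptors.

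Markers of the cells that could make this matrix, and of other cells of the liver, were counted in the same way. Of 10 tested stellate cell and myofibroblast genes, 0 were called in dHep, 0 in dHSC and 2 in WT, which are the same Col1a1 and Col3a1. In WT 5 of the 10 had a positive and 5 a negative log2 change, with a median of 0.14, or 0.83 without WT vehicle 1. The contractile and mesenchymal markers Des, Acta2 and Rgs5, chosen after their values were seen, stood at -2.44 (adjusted p = 0.292), -1.24 (adjusted p = 0.715) and -1.07 (adjusted p = 0.273). Ngfr and Tagln were also negative, at -0.62 and -0.39. Beside the 2 collagens, Hand2, Reln and Pdgfrb were positive, at 2.06, 0.74 and 0.67, without being called. Des ran from 5.91 to 180 CPM in WT vehicle, against 9.20 to 17.1 CPM in WT TCDD, so the groups overlapped. The 180 CPM lies in WT vehicle 1, the library with skeletal muscle genes. This list summed to 498 CPM there, and to 138 and 190 CPM in WT vehicle 7 and 13, of which Reln took at least 29.5 CPM. The changes of Des, Acta2 and Rgs5 are given only with WT vehicle 1 in the fit. Acta2 overlapped as well, with 3.27 to 31.6 CPM in WT vehicle and 3.98 to 9.26 CPM in WT TCDD. The stellate marker Lrat and the fibrosis marker Timp1 had 0 counts in all libraries, and as for Ogn every exon base of each lies inside another gene (Rbm46os for Lrat, Syn1 for Timp1), so these zeros are uninformative. The summed list ran from 198 to 262 CPM in dHep TCDD and 157 to 346 in dHep vehicle, 281 to 311 in dHSC TCDD and 156 to 214 in dHSC vehicle, and 252 to 432 in WT TCDD and 138 to 498 in WT vehicle. Of 8 macrophage genes 0 were called in dHep, 1 in dHSC (Gpnmb) and 4 in WT, all higher, and of 5 tested neutrophil genes 0 were called in dHep, 3 in dHSC and 5 in WT, all higher. Over all genes 0.027% were called higher in dHep, 1.71% in dHSC and 3.43% in WT. The neutrophil sum ran from 72.2 to 93.6 CPM in WT TCDD, against 2.41 to 5.51 CPM in WT vehicle. In dHSC TCDD it was 16.97 CPM in mouse 6, 12.4 in mouse 12 and 154 in mouse 18, against 3.98 to 10.2 CPM in dHSC vehicle, so mouse 18 stood far above the rest of its group. The 3 neutrophil calls in dHSC are given only with mouse 18 in the fit. Of 6 cholangiocyte genes Epcam and Spp1 were higher in WT, and of 8 tested endothelial genes Vwf was higher and Lyve1 lower in WT, a call that Lyve1 lost without WT vehicle 1. Hepatocyte, portal fibroblast, smooth muscle and mesothelium markers gave 0 calls in any of the 3 TCDD comparisons. Without WT vehicle 1 the portal fibroblast gene Pdgfra was called higher in WT, and the median log2 change of the 7 tested genes of its list was 1.29, against -0.79 with that library. Of 12 skeletal muscle genes 3 were tested, and all 3 were lower in WT TCDD, with 0 called without WT vehicle 1. The part of these cells in the changes of the matrix genes was not tested.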

How the data were processed

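Poly-T selected mRNA from 10 mg of liver per mouse was sequenced, from samples with an RNA integrity number above 6.8, per the labels' protocols. The authors deposited 1 table of raw read counts per library for 55536 Ensembl genes, and the submitters' processing notes name FastQC 0.11.9, HISAT2 2.1.0, HTSeq 0.11.3, DESeq2 1.22.2 and GRCm38; strand and overlap settings are not given in the sources used here. Symbols, positions and exon overlaps came from a GRCm38 gene annotation. Counts were fitted with edgeR 4.0.16 (R 4.3.3; TMM scaling, default filter on low counts, quasi-likelihood test), with all 18 libraries and 1 mean per group, and p-values were adjusted by Benjamini-Hochberg over the 14835 genes tested. CPM values use the TMM library sizes. The fit was tested on simulated counts. Libraries of a group differed by more than sampling noise, so none was counted as a duplicate. Tables were handled in Python 3.11.15 with pandas 2.3.3. Alternatives were RLE scaling, no filter, only the groups compared, DESeq2 1.42.0, leaving out each library in turn and, chosen after seeing the data, leaving out the 5 libraries with over 2% of counts outside protein-coding genes. Among the fits that leave out 1 library, the one without WT vehicle 1 was also singled out after seeing the data. Full values are given for members called in any comparison and for the 2 of largest change in WT in each role; others were chosen after their values were seen. The members and lists were chosen with earlier results of these data known.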

Additional observations from a re-analysis of the deposited data

How the results depend on the processing

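No paired analysis was possible because each mouse number was used in 1 group only. Each group holds 3 mice, and the biological coefficient of variation was 0.448. The counts of members called moved with the fit. For TCDD in WT they were 9 with DESeq2, 12 without the 5 libraries high in counts outside protein-coding genes and 1 to 9 when 1 library was left out, against 4. For TCDD in dHep there were 2 with DESeq2, against 0. For TCDD in dHSC there were 0 with only the groups compared, 5 with DESeq2, 0 without the 5 libraries and 0 to 1 when 1 library was left out, against 1. Tgfbi lost its WT call without the filter and with only the groups compared, at a log2 change of 0.84 in both. The cause of these shifts was not tested. Genes called over the whole table numbered 798 for TCDD in WT, against 1323 with DESeq2, 1584 without the 5 libraries and as few as 445 when 1 library was left out. For dHep they numbered 10, against 79 with DESeq2, 19 without the filter, 0 with only the groups compared and 0 without the 5 libraries. For dHSC they numbered 379, against 717 with DESeq2, 75 with only the groups compared and 214 without the 5 libraries. For the response difference of dHep minus WT they numbered 127, against 288 with DESeq2 and 19 without the 5 libraries. DESeq2 called 3 genes for the response difference of dHSC minus WT and 5 and 2 for the vehicle comparisons of dHep and dHSC with WT, where edgeR called 0. RLE scaling moved the median of all genes by at most 0.036 (log2).

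Of 644 alternative values over 56 results, 33 turned the sign, all in results that did not pass the test. Without the 5 libraries the log2 change was 0.45 for Col8a1, 1.68 for Fbln1 and 5.60 for Vcan in dHep. There dHep vehicle 3, in which Vcan had no count, was the only dHep vehicle liver left. In the same fit the log2 change was 0.14 for Col8a1 in dHSC and 0.014 for the Sparc response difference of dHep minus WT. When 1 library was left out, the log2 change in WT ran from -2.02 to 0.78 for Fbln1, -1.14 to 0.72 for Aebp1 and -2.10 to 1.07 for Mgp. In dHep it ran from -0.059 to 0.70 for Col6a1, -0.54 to 0.51 for Fbln1, -0.17 to 1.03 for Ltbp2, -0.41 to 0.12 for Nid2, -1.31 to 2.12 for Vcan, -0.31 to 0.38 for Pcolce and -0.067 to 0.68 for Mgp. In dHSC it ran from -0.50 to 0.056 for Col8a1 and -0.20 to 0.83 for Pcolce. The response difference of dHep minus WT ran from -0.20 to 0.61 for Eln, -1.06 to 0.12 for Lox and -0.26 to 0.13 for Sparc. The cause of these reversals was not tested.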
